A study of Mus musculus with 3 samples.

Results

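Day 0 PATZ1 peaks that sit on a high control background are described here. They number 7297 of the 312265 day 0 peaks on chromosomes 1 to 19 (2.34%), and 304968 peaks lie below the limit. Chromatin immunoprecipitation with an antibody against PATZ1, followed by sequencing (ChIP-seq), was done on 10T1/2 cells, which are mouse mesenchymal cells used to study how fat cells form. The labels name 1 PATZ1 library from cells at day 0, 1 from cells at day 5 of differentiation, and 1 input library of sheared chromatin labelled with both days. Nothing else in the labels sets the groups apart, and no replicate is named, so no p-value was computed between libraries or peaks. The list of day 0 peaks holds 315100 entries and that of day 5 holds 852421.

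PATZ1 carries zinc fingers that contact GC-rich DNA and a BTB domain that binds partner proteins, and it can activate or repress genes. A ChIP-seq peak is called by comparing the reads piled up at a site with a background taken from control chromatin. Control reads are not even along a genome: sequence present in more copies than the assembly holds, and chromatin that shears readily, are known to give more of them. A high background can therefore lie under a genuine binding site as well as under a repeat.

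The members were chosen on measured values. The authors' deposited fold of a peak, (pile-up + 1) / (background + 1), and its −log10 p, a Poisson tail, were solved for a whole number of piled-up reads and for the background. All day 0 and day 5 peaks met both values within a relative error of 0.0001. A background of at least 6 reads made a peak a member, which is 3.08 times the lowest background of the list, 1.95 reads. The pile-up, background, fold, −log10 p, q and width of day 0 peaks all come from that same contrast of day 0 chromatin with control, so they are given as descriptions. Positions are in mm9. The last day 0 peak on chromosome 1 ends at 197141686, past the end of that chromosome in later mouse builds. No genome of that build was used here, so genes and sequences at the peaks are not analysed here.

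The background of every day 0 peak equalled a whole number of control reads in 1 of 3 windows around the summit, or the genome mean. The windows were 228 bp, the length to which day 0 reads were extended, 1 kb and 10 kb. A control read counted as 0.906 reads of background in the shortest window. The genome mean was 9.44 control reads per kb, or 2.15 per 228 bp. Membership thus required at least 7 control reads in 228 bp, 30 in 1 kb or 291 in 10 kb. Day 0 depth, read from the lowest background, was 8.55 reads per kb, and day 5 depth was 8.07.

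A short, local pile of control reads set the background of most members. The 228 bp window decided it for 4788 members (65.6%), the 1 kb window for 2209 (30.3%) and the 10 kb window for 300 (4.11%). Among peaks below 6 reads the 228 bp window decided 23.9%, the 1 kb window 24.1%, the 10 kb window 30.8% and the genome mean 21.2%. The members of the 228 bp window held 7 to 271 control reads there, with a median of 8. Those of the 1 kb window held 30 to 835 control reads, with a median of 36, and those of the 10 kb window 291 to 3031, with a median of 315. The members of the 10 kb window lay mainly on chromosome 15, with 224 of the 300, and chromosome 10 came next with 16. Each peak counts under 1 window only, so broad coverage under a denser local pile is not seen in this count. On chromosome 11 from 3032684 to 3099223, 40 members had backgrounds of 29.9 to 98.8 reads, and the 10 kb window set 1 of them.

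The 3 members just inside had a background of 6.01. Of these, chr15:75897956-75898260 and chr17:34726858-34727106 held 12 reads each, and chr15:74501307-74501571 held 14. Just outside were 3 peaks at 5.99. A tall site at chr11:98318761-98319578 carried 70 reads, a fold of 10.2, while chr1:137663190-137663563 and chr10:60397121-60397348 carried 12 reads each. Backgrounds of 6 to 6.5 were found at 2354 peaks, whose pile-ups had a median of 13 reads and whose widths had a median of 317 bp. Those of 5.5 to 6 numbered 1196, also with a median of 13 reads, and had a median width of 303 bp. The median fold was 1.91 just inside and 2.13 just outside, and a q of at most 0.05 was listed for 6.63% and 11.96% of these peaks, against 2.09% of all autosomal day 0 peaks. These bands also differ in the control window behind them. In 228 bp, 6 control reads give a background of 5.44 and 7 give 6.34, so no such count falls from 5.5 to 6. The inner band holds 1777 peaks with 7 control reads in 228 bp, whose median fold was 1.77, with 5.29% at that q.

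Members were tall in reads but low in fold. Their median pile-up was 16 reads (quartiles 13 and 20), against 7 (6 and 9) below the limit. Their median fold was 1.91 (1.69 and 2.24), against 2.28 (2.03 and 2.57). A high background demands a high pile-up before a peak is listed at all. The lowest pile-up listed was 5 reads over 3 control reads in 228 bp, 10 over 7, 13 over 10 and 18 over 15. The median member with 7 control reads held 12 day 0 reads, and the median member with 10 held 18. The pile-ups and folds are thus partly set by the rule.

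Members were also wider. Their median width was 336 bp (quartiles 262 and 476), against 276 bp (229 and 358), and the widest spanned 3233 bp. Only 591 members (8.10%, 95% Wilson interval 7.50 to 8.75) had the narrowest possible width of 228 bp, against 24.7% below the limit (24.5 to 24.8). All intervals given take each peak as a separate draw. They hold counting error alone, since the peaks of a list share 1 library and 1 control. At least 1000 bp were covered by 213 members (2.92%) and by 1008 of the other peaks (0.33%).

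Width and pile-up were higher in each band of background up to 20 reads. From 6 to 8 reads there were 4374 members, whose medians were 14 reads and 321 bp. From 8 to 12 reads there were 2422, with 19 reads and 354 bp. From 12 to 20 reads there were 433, with 27 reads and 387 bp. The median fold in these bands was 1.92, 1.94 and 1.81. Above 20 reads the list thins out to 19 members below 50 reads, with a median fold of 1.71, and 49 members of 50 reads or more, with a median fold of 1.37 and a median pile-up of 105 reads. The range from 20 to 50 reads is thus sparsely filled, as the plot of pile-up against background shows. The limit of 50 marks no gap, since the highest background of the 19 was 48.9 reads and the lowest of the 49 was 50.4.

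**Figure D1:**
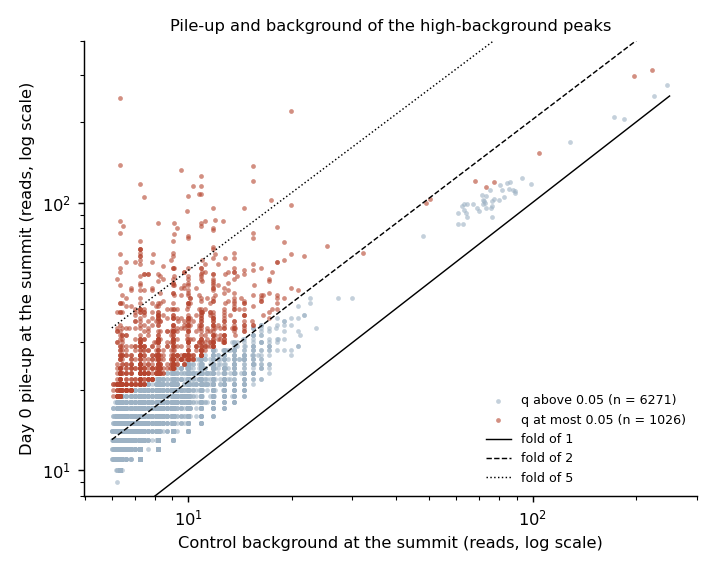
Day 0 pile-up at the summit against the control background, both in reads on log scales, for the 7297 members; each point is a peak, red where q is at most 0.05 (1026) and blue where it is not (6271), and lines mark folds of 1, 2 and 5. The members of 50 reads or more have folds of 1.11 to 2.02 and lie past a sparsely filled range, and the highest folds lie at backgrounds below 20.

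The 49 members with the highest backgrounds came from 8 places, of which 1 held most. On chromosome 11, 38 of them lay between 3043345 and 3099223, near the start of the assembled chromosome, with backgrounds of 60.7 to 98.8 reads, pile-ups of 83 to 124 reads and folds of 1.15 to 1.55. Of these 38, 1 had a q of at most 0.05, a limit that 2.09% of all autosomal day 0 peaks reached. Day 0 chromatin there carried little more than the control did. Of the 38, 13 overlapped a day 5 peak, against 22% of all autosomal day 0 peaks.

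The single highest background, 245.6 reads, lay on chromosome 2 from 98506736 to 98507269, where 271 control reads fell within 228 bp. Its pile-up was 275 reads, a fold of 1.12. The neighbouring member from 98502635 to 98502874 held 205 reads over 184.9, a fold of 1.11. Both have a −log10 q of 0, so neither stood out from control at day 0. Both overlapped day 5 peaks, whose highest pile-ups were 106 and 70 reads. The 7 day 5 peaks in this stretch had folds of 1.34 to 1.96.

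On chromosome 17, 4 members between 39980449 and 39985782 had backgrounds of 172.5 to 224.8 reads. Their pile-ups ran from 208 to 314 reads, and the tallest, from 39980903 to 39983152, was 2250 bp wide. Here 2 of the 4 had a q of at most 0.05, with folds of 1.41 and 1.51 and −log10 q of 4.24 and 6.54. With backgrounds this deep, a fold of 1.5 is enough for a low q. No day 5 peak was listed in this stretch. The remaining places held 1 member each: chromosome 11 from 108873046 to 108873336 (169 reads over 128.7), chromosome 12 from 75905070 to 75905305 (153 over 104.2), chromosome 17 from 36368166 to 36368441 (119 over 77.0), chromosome 2 from 181652186 to 181652435 (120 over 68.0) and chromosome 4 from 3017883 to 3018140 (103 over 50.4). The chromosome 4 member had the highest fold of the 49, 2.02, and a −log10 q of 6.20. The 10 members with the highest background all fall among the 49; those not yet given lay on chromosome 11 from 3093033 to 3093702, with 117 reads over 98.8, and from 3061112 to 3061464, with 124 over 93.3.

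Along the genome, members were concentrated on chromosome 15. It held 2234 of them (30.6% of members), but 8.56% of all autosomal day 0 peaks. There 8.36% of peaks were members (95% Wilson interval 8.03 to 8.69). On the other 18 autosomes the share ran from 0.828% on chromosome 12 to 4.09% on chromosome 10 (3.63 to 4.60), and chromosome 19 followed with 3.42% (3.07 to 3.81). In members per Mb between the outermost peaks, chromosome 15 had 22.2, and the others 0.474 to 5.47, with chromosome 19 the highest of these. Chromosomes 15, 10 and 19 also had the highest median control density under their day 0 peaks, 17.5, 14.8 and 13.4 control reads per kb. Under the day 5 peaks the corresponding medians were 17.9, 16.4 and 14.6, again the 3 highest of the 19. Control coverage was thus raised over these chromosomes beyond the members.

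**Figure D2:**
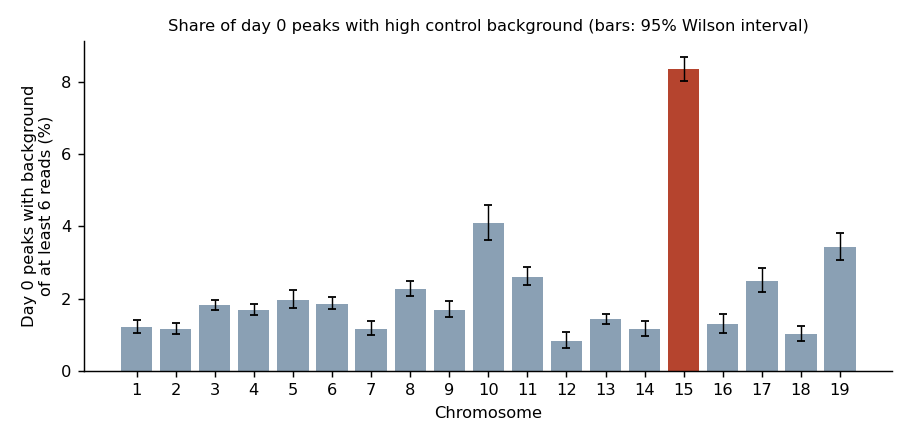
Share of the day 0 peaks of each autosome, in percent, whose control background is at least 6 reads; bars on the columns are 95% Wilson intervals and chromosome 15 is in red. Chromosome 15 stands at 8.36%, and the next highest column, chromosome 10, at 4.09%.

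On chromosome 15 itself the members gathered toward the distal end. From 70 to 104 Mb, 1433 of 8893 peaks were members (16.1%, 15.4 to 16.9), against 801 of 17843 (4.49%, 4.20 to 4.80) before 70 Mb, a division chosen after the values were seen. In 5-Mb steps the share was 26.7% from 75 to 80 Mb, 23.8% from 95 to 100 Mb and 27.4% from 100 Mb on. It was 0.0796% from 15 to 20 Mb (1 of 1257 peaks) and 2.01% from 90 to 95 Mb. Members were therefore patchy within the chromosome. The step with the most day 0 peaks, 20 to 25 Mb with 1899, held 10 members.

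The 5 windows of 1 Mb with the most members all lay on chromosome 15. The window from 78000001 to 79000000 held 124 members among 416 peaks, that from 76000001 held 102 among 258, that from 102000001 held 101 among 251, that from 98000001 held 90 among 268 and that from 79000001 held 86 among 370. In these windows 23.2% to 40.2% of peaks were members. A q of at most 0.05 was reached by 14, 11, 13, 13 and 9 of these members, or 10.5% to 14.4% of those in a window. The share was 14.1% over all members and 2.09% over all autosomal day 0 peaks.

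Windows with 10 or more members numbered 174 of the 2393 with any day 0 peak, and they held 3922 members (53.7%, 52.6 to 54.9). Of all autosomal day 0 peaks, 13.7% lay in those windows. The windows were chosen by their number of members, so a higher share for members is partly fixed by that choice. Chromosome 15 had 58 of the 174, and 17 chromosomes had at least 1. At the other end, 1109 windows held no member, 11 of them on chromosome 15. Outside chromosome 15 the fullest window was on chromosome 11 from 3000001, with 43 members, which include the group described above. Next came chromosome 19 from 5000001 with 41 of 191 peaks, and chromosomes 3 from 89000001 and 8 from 87000001 with 33 each. On chromosome 10 the window from 80000001 held 30 members among 78 peaks (38.5%).

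**Figure D3:**
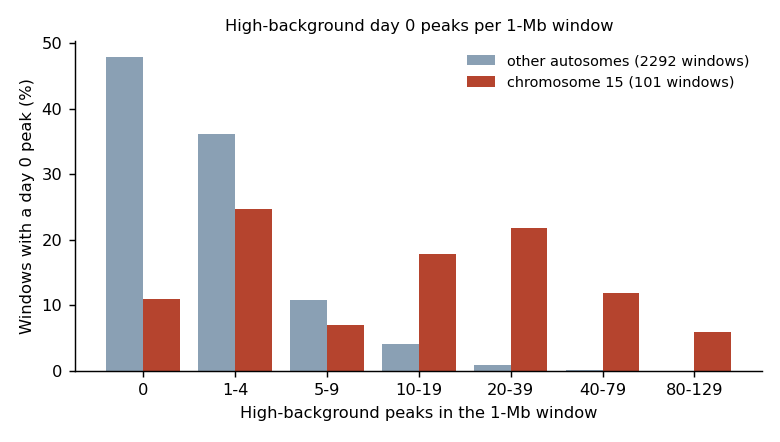
Percent of 1-Mb windows with a day 0 peak that hold a given number of members, for chromosome 15 (101 windows, red) and the other autosomes (2292 windows, blue). Chromosome 15 has 11 windows with no member and reaches up to 124 in a window, and off chromosome 15 the highest count is 43.

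At short range, 3587 members (49.2%, 48.0 to 50.3) had another member within 10 kb. Over all autosomal day 0 peaks, 7.5% had a member within 10 kb other than themselves. On chromosome 15 the share was 73.8% and elsewhere 38.3%, with median distances to the nearest member of 2282 and 25113 bp. Members at most 10 kb apart formed 4914 groups, of which 3710 were single peaks and 29 held 10 or more. Of these 29, 27 lay on chromosome 15. Neighbouring members share the control reads of the 1 kb and 10 kb windows, so they are not separate observations of the control.

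The fullest group was the chromosome 11 stretch from 3032684 to 3099223. All 40 day 0 peaks in it were members, with backgrounds of 29.9 to 98.8 reads and a highest fold of 1.55. The group with the next highest number was on chromosome 15 from 103122937 to 103216550, with 35 members among 43 day 0 peaks. Its backgrounds were 6.12 to 21.8 reads and its highest fold was 4.32, and for 14 of the 35 the 10 kb window set the background. The backgrounds of these groups thus did not overlap.

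Other groups on chromosome 15 held strong peaks among weak ones. From 78656147 to 78694504 there were 20 members with a highest fold of 11.1, and 6 of them reached a q of 0.05 or less. From 102033311 to 102089878 there were 19 members with pile-ups from 12 to 137 reads, and 4 of them reached it too. Of all autosomal day 0 peaks, 2.09% reached that q. From 76017794 to 76045836 there were 19 members, all the day 0 peaks of that stretch, with a highest fold of 6.34. Groups of 19, 18, 17 and 14 members followed on chromosome 15 from 85475602, 77661242, 78254072 and 77609137. Their highest folds were 4.57, 2.89, 4.07 and 2.56. The only other group among the 10 fullest lay on chromosome 3 from 88293643 to 88345176, with 17 members among 28 day 0 peaks and a highest fold of 3.45.

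Members near chromosome ends came largely from chromosomes 11 and 15. Over all autosomal day 0 peaks the share of members was 2.34%. Within 1 Mb of the outermost peak at the start of each autosome, 108 of 2187 peaks were members (4.94%, 4.11 to 5.93), and 43 of the 108 were on chromosome 11. Without chromosome 11 the share was 3.28% (65 of 1979). At the other end 161 of 2626 were members (6.13%, 5.28 to 7.11), of which chromosome 15 gave 107. Without chromosome 15 the share was 2.29% (54 of 2355).

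The members held many of the strongest day 0 peaks. These counts rest on the contrast that chose the members, so they describe the list and carry no test. A q of at most 0.05 was reached by 1026 members (14.1%, 13.3 to 14.9), against 2.09% of all autosomal day 0 peaks. A −log10 q of at least 5 was reached by 387 members (5.30%), against 0.257% of all. Seen from the strong peaks, 387 of the 801 with a −log10 q of at least 5 were members (48.3%, 44.9 to 51.8), and so were 195 of the 368 with at least 10 (53.0%, 47.9 to 58.0). Of the peaks with a −log10 q below 0.5, 1.91% were members. The median background was 5.85 reads over the 801 and 2.69 over all autosomal peaks. For a given pile-up a higher background gives a weaker p, and for a given fold in this list it gives a stronger one. How far either bears on the share of members among strong peaks was not tested.

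Members were common among strong peaks both on and off chromosome 15. Off chromosome 15, 317 of 698 peaks with a −log10 q of at least 5 were members (45.4%, 41.8 to 49.1), and on it 70 of 103 were (68.0%, 58.4 to 76.2). Members off chromosome 15 had a q of at most 0.05 more often, 16.7% (15.7 to 17.7), than those on it, 8.19% (7.12 to 9.40). Among the 387 strong members the 228 bp window set the background in 205, the 1 kb window in 176 and the 10 kb window in 6.

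**Figure D4:**
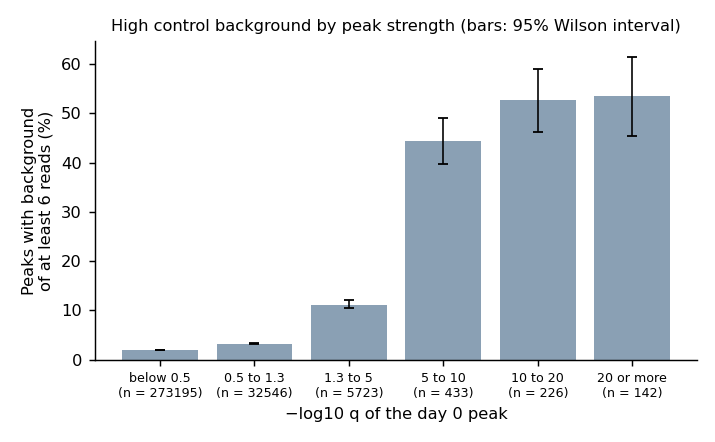
Percent of autosomal day 0 peaks with a control background of at least 6 reads, by class of −log10 q; bars on the columns are 95% Wilson intervals and n is the number of peaks in the class. The share is 1.91% in the weakest class and 53.5% in the strongest, 76 of 142 peaks.

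Strong members had more reads but lower folds than strong peaks on low background. The 387 members had a median pile-up of 42 reads, a median fold of 4.19 and a median width of 631 bp. The 414 other peaks with a −log10 q of at least 5 had 26 reads, a fold of 5.60 and 659 bp. A fold of at least 5 was reached by 103 of the 387 and by 291 of the 414.

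The strongest member lay on chromosome 13 from 21418079 to 21419648, with 245 day 0 reads over a background of 6.34, which is 7 control reads in 228 bp. Its fold was 33.5, the highest of the members, and its day 5 pile-up was at most 7 reads. On chromosome 15 from 81702008 to 81702828, 219 reads stood over 22 control reads in 228 bp, a background of 19.9 and a fold of 10.5. No day 5 peak was listed there. This site combined a tall day 0 pile-up with control coverage of 96.5 reads per kb, which is over 10 times the genome mean.

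The other 8 of the 10 members with the highest −log10 p had pile-ups from 105 to 138 reads. On chromosome 3, a member from 103397308 to 103398636 held 138 reads over 6.34, and another from 103613181 to 103613704 held 132 reads over 9.50. On chromosome 15, members starting at 85430560 and 102087413 held 126 reads over 10.9 and 137 reads over 15.4. Those on chromosome 19 from 46118562, chromosome 17 from 23813285, chromosome 6 from 108609194 and chromosome 12 from 3806183 held 117, 105, 115 and 115 reads. These 10 were 524 to 1656 bp wide with folds of 8.41 to 33.5, and 5 of them overlapped a day 5 peak, with 2 to 7 reads. Of the 10 members with the highest folds, 7 are among them. The other 3 lay on chromosome 5 from 122283552 to 122284190 (85 reads over 6.34, a fold of 11.7), chromosome 15 from 78686009 to 78686463 (82 over 6.49, a fold of 11.1) and chromosome 2 from 32737845 to 32738715 (77 over 6.34, a fold of 10.6).

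Most members were weak in spite of this. A q above 0.05 was listed for 6271 of them, with a median fold of 1.86 and a highest fold of 2.70, and 704 of all members (9.65%, 8.99 to 10.3) had a fold below 1.5. Below the limit of 6 reads, 0.546% of peaks had so low a fold. The lowest fold listed was 1.68 at backgrounds below 2 reads and 1.39 from 6 to 8 reads. This contrast in fold is therefore partly set by the rule. The weak members had a median width of 313 bp, and the other peaks with a q above 0.05 had 274 bp.

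The control was compared between the lists. The genome mean solved from the day 5 list was 9.44 control reads per kb, as in the day 0 list. Where a day 0 and a day 5 summit lay within 5 bp and both backgrounds came from the 1 kb window, the control counts differed by at most 1 read in 507 of 510 pairs below the limit. For members there were 5 such pairs, and the control counts were equal in each, with a median of 31 reads. Most members owe their background to the 228 bp window, which the day 5 list, with an extension of 56 bp, does not use, so their control counts could not be compared directly. Over all 1288 pairs of a member and an overlapping day 5 peak, the median control density was 35.1 reads per kb at day 0 and 31.4 at day 5.

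Day 5 peaks were listed less often at members than at other day 0 peaks. Of the members, 1169 (16.0%, 15.2 to 16.9) shared at least 1 bp with a day 5 peak, against 22% of all autosomal day 0 peaks. A day 5 summit lay within 150 bp of 662 member summits (9.07%, 8.43 to 9.75), against 16.7% of all. Below the limit of 6 reads these shares were 22.2% (22.0 to 22.3) and 16.9% (16.8 to 17.1). The peaks of a list share a library and a control, so the intervals do not test the difference.

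The difference held in each class of width. Between 228 and 250 bp, 10.1% of members (8.67 to 11.8) and 17.1% of other peaks (16.9 to 17.3) overlapped a day 5 peak. Between 350 and 500 bp the shares were 16.6% (14.9 to 18.3) and 27.5% (27.1 to 27.9). At 800 bp or more they were 34.5% (30.3 to 38.9) and 53.7% (52.0 to 55.5). In both sets the share was higher at wide peaks than at narrow ones.

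Strong peaks showed the same order. Of the 387 members with a −log10 q of at least 5, 99 overlapped a day 5 peak (25.6%, 21.5 to 30.2), and of the 414 other peaks of that strength 188 did (45.4%, 40.7 to 50.2). The share of summits with a day 5 summit within 150 bp was 12.1% (9.26 to 15.8) and 22.0% (18.3 to 26.2). With chromosome 15 left out, 15.9% of members and 21.5% of other peaks overlapped a day 5 peak. On chromosome 15 alone the shares were 16.3% (14.8 to 17.9) and 29.8% (29.2 to 30.4).

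Below 2 reads of background, 15.8% of summits had a day 5 summit within 150 bp. The share was 18.4% from 2 to 3 reads, 17.0% from 3 to 4, 11.7% from 4 to 5 and 11.6% from 5 to 6. A fall was thus already present below the limit. Among members the share was lower in each higher band up to 20 reads. A day 5 summit lay within 150 bp of 10.3% of member summits with a background of 6 to 8 reads (9.44 to 11.2), of 7.27% from 8 to 12 (6.30 to 8.37) and of 4.62% from 12 to 20 (3.01 to 7.03). It was 10.5% from 20 to 50 reads, on 19 members only (2.94 to 31.4). At 50 reads or more it was 26.5% (16.2 to 40.3), or 13 of 49, so the extreme stretches depart from the order. They are also the only members where day 5 pile-ups exceeded 23 reads.

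Around member summits the density of day 5 summits was low at the site itself. Within 100 bp it was 0.282 day 5 summits per kb, against 0.592 around summits below the limit. From 500 to 2000 bp away it was 0.329 per kb around members and 0.411 around the others. From 100 to 200 bp members had 0.347 per kb, close to their density further out, while the others had 0.553. From 400 to 500 bp the values were 0.311 and 0.445, so members lay below the others beyond 100 bp too. In the band of 12 to 50 reads the density within 100 bp was 0.155 per kb. The 49 members of 50 reads or more showed the opposite order, with 1.02 per kb within 100 bp (10 day 5 summits) and 0.415 from 500 to 2000 bp away. The lowest pile-up listed also differed with control density. Among autosomal day 5 peaks it was 2 reads at the genome mean of the control. It was 4 reads where the control was as dense as at a member. Whether this bar for calling bears on the lower share was not tested.

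**Figure D5:**
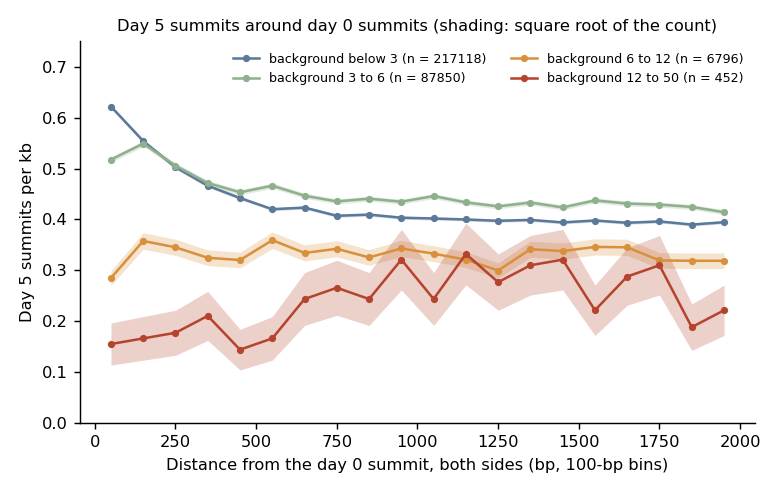
Day 5 summits per kb in 100-bp bins of distance from the day 0 summit, both sides together, for 4 bands of day 0 control background; shading is the square root of the number of day 5 summits. Within 100 bp the density is 0.622 per kb for backgrounds below 3 reads, 0.518 for 3 to 6, 0.285 for 6 to 12 and 0.155 for 12 to 50. The 49 members of 50 reads or more are not drawn.

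Where a day 5 peak was listed at a member, its median pile-up was 5 reads, against 3 at peaks below the limit. Scaled to the day 5 extension of 56 bp and the day 5 depth, a factor of 0.232, the day 0 pile-ups of those members had a median of 3.71 reads. A day 5 pile-up at or above the scaled value was found at 891 of the 1169 members. Over all autosomal day 0 peaks with a day 5 peak, it was found at 64947 of 68808. The lowest day 5 pile-up listed at control as dense as at a member was 4 reads, so these counts depend on the bar for calling. At the 99 strong members with a day 5 peak, the scaled median was 10.2 reads and the day 5 median was 6, and 4 of the 99 reached their scaled value. Of the 188 other strong peaks with a day 5 peak, 10 reached theirs. At the members of 50 reads or more, 16 of the 17 with a day 5 peak reached their scaled value. These sets were chosen on day 0 values and only listed day 5 peaks are counted, so the counts partly follow from the choice. A site without a listed day 5 peak has an unknown day 5 pile-up. With 1 library per day none of these differences has a replicate check.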

How the data were processed

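The authors deposited a peak list and a summit list for each day, with 1 PATZ1 library behind each, and single-end reads per the labels' protocols. Bowtie2, HOMER and 3 build names (mm9, mm10, GRCm38) stand in the submitters' processing notes with no role. No source used here gives the peak caller. The score deposited by the authors equals 10 times the −log10 p, rounded down, at all but 1 of the 315100 day 0 peaks and at all 852421 day 5 peaks, and was not used. The fold deposited by the authors is a ratio of pile-up to background with 1 added to each. The −log10 p and −log10 q are deposited values and were used within a list only. Summit offsets came from the deposited lists.

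Pile-ups from 1 to 399 reads were tried and that of least relative error was kept. Tested on values rebuilt from 5000 solved peaks drawn from the members, 100% of pile-ups and windows were recovered. The rebuilt windows were those already assigned, so this does not check the assignment of windows itself. A 10 kb count divisible by 10 cannot be told from a 1 kb count and was assigned to 1 kb. Overlap means at least 1 bp shared. The tools were numpy 2.4.6, scipy 1.17.1, pandas 2.3.3 and matplotlib 3.10.9 under Python 3.11.15.

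The members, regions and comparisons were chosen with earlier results of these data known. Regions named are the 10 fullest groups at a gap of at most 10 kb, the 10 members highest in background, −log10 p and fold, the 3 peaks on each side of the limit and the 5 fullest 1-Mb windows; other positions were chosen after their values were seen. Alternatives were other limits on background, a q limit, other overlap rules and distances, chromosome X, and, chosen after seeing the data, leaving out chromosome 15 or backgrounds of at least 50 reads.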

Additional observations from a re-analysis of the deposited data

How the results depend on the processing

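Limits of 5, 8 and 12 reads gave 13963, 2923 and 501 members. In that order the median width was 320, 359 and 380 bp, the median pile-up 13, 20 and 28 reads, the share with a q of at most 0.05 9.78%, 20.5% and 25.9%, the share with another member within 10 kb 57.7%, 35.4% and 25.3%, the share in windows with 10 or more 72.2%, 29.0% and 16.4%, the share overlapping a day 5 peak 17.7%, 13.8% and 12.8%, and the share of summits with a day 5 summit within 150 bp 10.3%, 7.22% and 6.99%. The median fold was 1.94 at 5 reads and 1.75 at 12. At each of these limits the members overlapped a day 5 peak less often than the other autosomal peaks, of which 22.2%, 22.1% and 22.1% did. The clustering shares fell as the number of members did, and how far the smaller number accounts for this was not tested.

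Members with a q of at most 0.05 had medians of 549.5 bp in width, 29 reads in pile-up and 3.03 in fold, and 22.2% overlapped a day 5 peak and 10.5% had a day 5 summit within 150 bp, against 34.4% and 20.6% of the other peaks of that q. A −log10 q of at least 5 was reached by 5.30%. Another member lay within 1 kb of 26.1% and within 100 kb of 81.4%. Windows moved by 0.5 Mb held 51.5% of members in windows with 10 or more, and windows with 20 or more members held 34.1%. Counting a day 5 peak only with 50% of it inside gave 13.8%, and only with a −log10 p of at least 3 gave 3.21%, against 18.7% and 3.94% of the other peaks. A distance of 50 bp between summits gave 2.81%. Without chromosome 15, the median width was 343 bp, the median fold 1.94, the share with a q of at most 0.05 16.7%, the share within 10 kb of another 38.3% and the share in windows with 10 or more 35.3%. Leaving out backgrounds of at least 50 reads moved none of these results past its spread. Adding chromosome X (7357 members), a limit on the relative error and larger pile-ups were run for the number of members only, which stayed within 1.5 times. No paired analysis was possible because each day has 1 library. Depth of 8.55 and 8.07 reads per kb limits what either list can show at weak sites, and genes and sequences are not analysed here.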

Other observations

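Chromosome X, which the membership rule leaves out, held 60 peaks with a background of at least 6 reads among its 2835 day 0 peaks (2.12%, 95% Wilson interval 1.65 to 2.71), close to the 2.34% of the autosomes. Their median pile-up was 17 reads and their median width 312 bp, 12 had a q of at most 0.05, and 9 overlapped a day 5 peak. Over all autosomal day 0 peaks, 2.09% had such a q and 22% overlapped a day 5 peak. The 3 highest backgrounds lay near the distal end, from 166431866 to 166432235 (66 reads over 51.7), from 166413479 to 166413751 (49 over 28.1) and from 166411586 to 166412050 (36 over 21.8), with folds of 1.27, 1.72 and 1.63.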
